A study of Mus musculus with 12 samples.

Results

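The Rab GTPases were described here by their m6A peaks in the mouse hippocampus, where 49 Rab genes carried a peak in at least 1 genotype, of 17744 genes with any peak. A gene was a member when its symbol was Rab followed by a number and at most a short suffix, which gave 67 of the 33622 peaks of wild-type (WT) mice and 77 of the 34935 peaks of Tyrobp-/- mice. RefSeq holds 59 protein-coding mouse genes with such symbols, and 10 of them had no peak under their own name in either list.

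The series applied MeRIP-seq, in which fragments of poly(A) RNA are captured with an antibody to N6-methyladenosine (m6A) and sequenced beside uncaptured input, to hippocampi of 6-month-old WT and Tyrobp-/- mice. Each genotype had 3 IP and 3 input libraries, and each sample was RNA pooled from 3 hippocampi. All animals were male C57BL/6 mice, and the controls were WT littermates. The Tyrobp-/- line carried a constitutive TALEN deletion in Tyrobp, which encodes a signalling adaptor found in the brain mainly in microglia, so that neurons, astrocytes and microglia were knocked out alike and were sequenced together.

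Rab proteins are small GTPases of the Ras superfamily. Bound to GTP they sit on the membrane of a given organelle and recruit motors, tethers and fusion factors, and after GTP hydrolysis they are drawn off the membrane by a GDP dissociation inhibitor. Each step of vesicle traffic uses its own Rab proteins, from the release of synaptic vesicles to the delivery of cargo to lysosomes. m6A is set on messenger RNA by the METTL3 and METTL14 methyltransferase, most often near stop codons and in 3' UTRs within a GGAC-like motif, and the antibodies used to capture it also bind m6Am, a methylated adenosine next to the cap.

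The libraries held 61189368 to 73554506 valid reads each. GC content ran from 49.16% to 50.24% in WT IP libraries and from 48.46% to 49.33% in those of Tyrobp-/- mice, and the part of this difference in the ratios between genotypes was not tested. All 8 markers of hippocampal neurons, all 4 of astrocytes and all 4 of oligodendrocytes that were looked up had a peak in both lists, as did 3 of 5 markers of microglia. Tyrobp itself had no peak in either list, so the peaks do not check the genotype. Of 5 hypothalamic markers, 2 had a peak in WT and 0 in Tyrobp-/- mice. Hcrt and Pmch had none in either list, while the paper names both among the genes most upregulated in Tyrobp-/- mice. The part of neighbouring tissue was not tested. In bulk tissue, fewer cells of a type and less RNA per cell cannot be told apart.

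The authors called peaks on the pooled libraries of a genotype, so each peak had 1 fold enrichment (IP over input) per genotype and no replicate error. No value below therefore carries an SD or a test, and intervals cover counting error over peaks or genes only.

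A Rab peak was found in 45 genes in WT, or 76.3% of the 59 (95% Clopper-Pearson interval 63.4% to 86.4%), and in 47 genes in Tyrobp-/- mice, or 79.7% (67.2% to 89.0%). Over all RefSeq protein-coding genes the shares were 56.8% in WT and 58.2% in Tyrobp-/- mice. A peak needs enough reads, and the Rab genes and all genes were not matched for expression. Of all 17744 genes with a peak, 15781 had one in WT and 16146 in Tyrobp-/- mice. Of the 49 Rab genes with a peak, the same 43 had one in both lists. Those with a peak carried few of them, on average 1.49 per gene in WT and 1.64 in Tyrobp-/- mice, beside 2.13 and 2.16 for all genes with a peak. In WT, 27 Rab genes had 1 peak, 14 had 2 and 4 had 3. Rab43 had the most rows, 3 in WT and 4 in Tyrobp-/- mice, followed by Rab11b with 3 in each, and then by Rab5a, Rab7b and Rab26 with 5 rows each over the lists. Some rows of Rab43, Rab11b, Rab4b, Rab26, Rab20 and Rab39b overlapped another row of the same gene, and such rows share reads.

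Rab peaks lay mostly at the 3' end. The lists placed 45 of 67 WT peaks in 3' UTRs, which was 67.2% (interval 54.6% to 78.2%). A further 16 were in 5' UTRs and 6 in other exonic sequence. In Tyrobp-/- mice the 3' UTR share was 53 of 77 peaks, or 68.8% (57.3% to 78.9%), with 18 peaks in 5' UTRs and 6 elsewhere. The 3' UTR share over all genes was 47.2% in WT and 49.3% in Tyrobp-/- mice, below the interval of the Rab peaks in both lists. All Rab members are protein-coding, but not all genes with a peak were RefSeq protein-coding genes. In WT 12449 of 15781 were, and in Tyrobp-/- mice 12735 of 16146. The part of this mix in the gap was not tested. By position, 42 of the 62 WT Rab peaks whose middle exonic base lay inside the RefSeq gene (67.7%) were in the last 20% of the gene, introns included, against 52.3% of all peaks. In Tyrobp-/- mice it was 48 of 67 (71.6%) against 54.2%. The label and the position did not always match. The strongest Rab21 peak was labelled 3' UTR but lay at 8.94% of the gene in WT, and the strongest Rab9 peak was labelled 5' UTR with its middle base at 96.3% in WT and 97.3% in Tyrobp-/- mice.

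**Figure D1:**
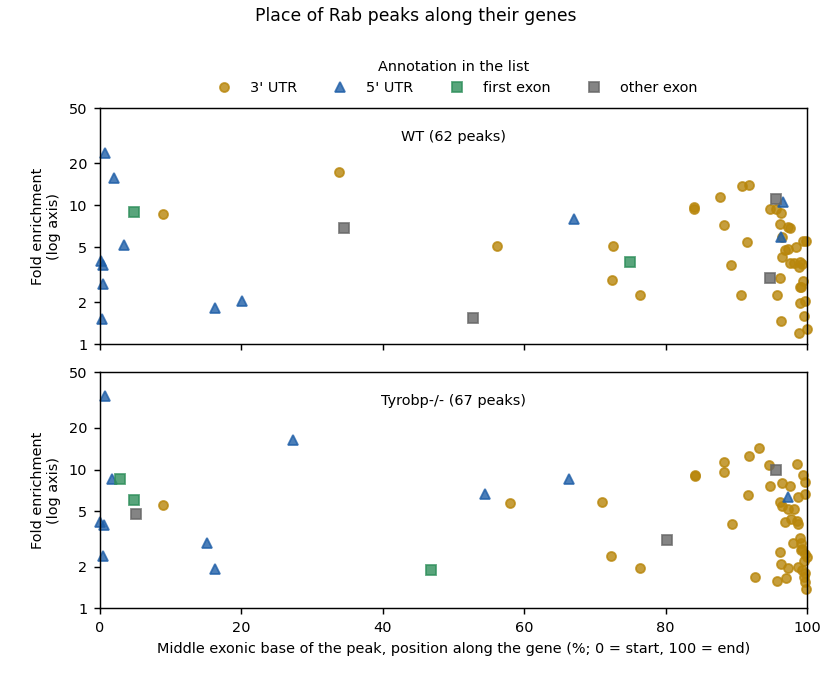
Place of each Rab peak along its gene (x axis, position of the middle exonic base in percent of the RefSeq gene, introns included) against its fold enrichment (y axis, log scale), for 62 WT peaks and 67 Tyrobp-/- peaks inside the gene. Points gather in the last 20% of the gene in both genotypes (42 WT and 48 Tyrobp-/- peaks), while the highest single value, the Rab35 peak, stands at the start.

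The median fold enrichment of Rab peaks was 5.02 in WT (interval 3.86 to 5.90) and 4.76 in Tyrobp-/- mice (3.61 to 5.95), beside 5.54 and 5.72 over all genes. Values ran from 1.21 to 23.9 in WT and from 1.37 to 34.0 in Tyrobp-/- mice. Labelled 5' UTR peaks had a median of 6.86 in WT and 6.49 in Tyrobp-/- mice, and labelled 3' UTR peaks 4.85 and 4.20. The 10 genes with the highest WT values were Rab35, Rab42, Rab43, Rab30, Rab19, Rab23, Rab11b, Rab10, Rab20 and Rab26. In Tyrobp-/- mice Rab39 and Rab13 took the places of Rab43 and Rab11b. The strongest peak had the same annotation class in both lists for 39 of the 43 genes with peaks in both.

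The peak at the start of Rab35 was the highest of the family in both genotypes, with a fold enrichment of 23.9 in WT and 34.0 in Tyrobp-/- mice. It covered 211 exonic bases at chr5:115631908-115632118 (mm10/GRCm38), labelled 5' UTR, with the same bounds in both lists. Only 2.44% of all WT peaks and 0.87% of all Tyrobp-/- peaks had a higher value. A peak in both lists also overlapped the first 30 transcribed bases of a RefSeq start of Rab1a, Rab5a, Rab9b, Rab11b, Rab42 and Rab43. The bases were covered whole, except in Rab1a, where 10 of the 30 were. Those of all 7 starts are shown because they are the part of the 5' peaks for which reference sequence was at hand (RefSeq, GRCm38.p6, sense strand, 5' to 3'). The capital marks the first transcribed base, the place of a capped adenosine where it is A.
Rab35, chr5:115631987-115632016, plus strand: Tgtttctgtcagttccggctgtttgttcgg
Rab5a, chr17:53479234-53479263, plus strand: Ggctacgtggcggagccggcggaagcagtt
Rab1a, chr11:20201412-20201441, plus strand: Agttcctggttcgccggcggccattttggg
Rab42, chr4:132303327-132303356, minus strand: Agcggggagcccagatcctatggaggcggc
Rab43, chr6:87811750-87811779, minus strand: Agagagctgcggagggccgggcggtgcgct
Rab9b, chrX:136868527-136868556, minus strand: Agcagctgtcaggccaccgaggtccaagct
Rab11b, chr17:33760457-33760486, minus strand: Ccgcctttctccgggagaccgagggctaga
Of the 7 starts under a peak in both lists, 4 began with A. Of all Rab start windows 17 of 60 (28.3%) did, and 34.4% of all 32851 RefSeq start windows. The 7 starts are too few to compare these shares. The motif GGAC, searched on both strands, was found in 1 of the 7 (Rab9b, on the antisense strand), and in 20.5% of the first 30 bases of all windows. Rab35, with the highest enrichment, began with T at the start shown and held no GGAC on either strand in these 30 bases. The RefSeq genes of Rab35 and Rab42 begin upstream of the starts shown, at chr5:115631904 and chr4:132303382. The first bases there were not examined. Rab43 has further starts upstream of the one shown, covered by a peak in Tyrobp-/- mice only. In the whole windows of 300 bases, from 250 before to 50 after the start, GGAC stood on the sense strand in 44 of 60 Rab windows (73.3%) and in 65.6% of all windows. Of these 300 bases 250 lie before the start and are not transcribed from it. The window shares therefore do not describe motifs in the RNA.

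Rab genes of the synaptic vesicle and of regulated secretion all had a peak in at least 1 list (8 of 8 genes). Over the whole family 83.1% of the 59 genes did, and over all RefSeq protein-coding genes 62.0%. The only Rab37 peak had an FDR above 0.05. Rab3a, the main Rab of synaptic vesicles, had a single 3' UTR peak of 4.79 in WT and 4.20 in Tyrobp-/- mice at chr8:70758291-70758677. Its 387 exonic bases had the same bounds in both lists, and 69 of them lay past the end of the RefSeq gene, towards Mpv17l2. The 3 paralogues that share its function in vesicle release had 3' UTR peaks as well. Rab3b went from 4.25 in WT to 5.49 in Tyrobp-/- mice. Rab3c had a stronger peak of 4.85 and 5.16 and a weaker one, at the end of the transcript, of 1.6 and 1.67. Rab3d stood at 2.90 and 2.40. None of these Rab3 peaks differed by 1.5-fold between the genotypes, beside 16.2% of the pairs of all genes higher in Tyrobp-/- mice and 13.4% lower.

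Rab27a and Rab27b tether secretory granules and lysosome-related organelles at the plasma membrane. The 3' UTR peak of Rab27a was 8.85 in WT and 7.98 in Tyrobp-/- mice, and that of Rab27b 2.97 and 2.53. Rab27a had a further exonic peak of 3.00 in WT only, and Rab27b a further peak of 6.67, labelled 5' UTR, in Tyrobp-/- mice only. That last peak had a peak-calling FDR above 0.05, and 887 Tyrobp-/- peaks in all carried exactly its fold enrichment and FDR. Rab26, known from the capture of synaptic vesicles by autophagosomes, had its highest values, 9.77 and 12.4, in a peak outside the RefSeq gene, over the noncoding Gm33508. Within the gene Rab26 had a 3' UTR peak of 1.96 in Tyrobp-/- mice alone. Rab37, of secretory granules, had 1 peak of 3.10 in Tyrobp-/- mice only, with an FDR above 0.05.

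Among the 15 Rab genes of early and recycling endosomes, 11 had a peak in WT or Tyrobp-/- mice, beside 62.0% of all RefSeq protein-coding genes. Of their 13 matched pairs 1 was at least 1.5-fold higher in Tyrobp-/- mice and 2 lower, where 16.2% of the pairs of all genes were higher and 13.4% lower. Rab5 proteins drive the fusion of early endosomes. Rab5a had a peak at its start of 3.70 in WT and 3.98 in Tyrobp-/- mice, a second 5' UTR peak of 1.83 and 1.91, and a 3' UTR peak of 1.58 in Tyrobp-/- mice only. Rab5c had a 3' UTR peak of 3.88 in WT and 6.30 in Tyrobp-/- mice, 1.62-fold higher, at chr11:100715009-100715483 in WT. Rab5b had none. Rab5a and Rab5c, which are close paralogues, thus carried their strongest peaks at opposite ends of the transcript.

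Rab4 proteins serve the fast return of receptors to the surface and Rab11 proteins the slow one. Rab4a had a 3' UTR peak of 2.86 in WT and 2.64 in Tyrobp-/- mice, and a second of 1.46 in WT only. Rab4b had 2 overlapping rows, of 2.59 and 2.58 in WT and of 2.94 and 3.20 in Tyrobp-/- mice. Rab11a had no peak. Rab11b had a 3' UTR peak of 2.27 and 1.95, and a row labelled 5' UTR of 11.2 in WT and 5.95 in Tyrobp-/- mice, 1.88-fold lower, which was the furthest decrease in the family. Of the 538 exonic bases of that row 430 lay outside Rab11b, over the noncoding Gm17251. The other row at the start of Rab11b, with 44 bases outside, was 3.98 in WT and 4.18 in Tyrobp-/- mice. The decrease was therefore seen in the row that reached over the neighbouring RNA and not in the one that lay mostly on Rab11b.

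Rab35 and Rab14, which also recycle endosomal cargo, had 5' peaks. Besides the start peak of Rab35 given above there was a 3' peak of 3.61 in Tyrobp-/- mice only, all of it past the RefSeq end. Rab14 had a first exon peak of 8.91 in WT and 5.99 in Tyrobp-/- mice, and in Tyrobp-/- mice only a further first exon peak of 8.58, with an FDR above 0.05, and a 3' UTR peak of 1.81. Rab21, of integrin endocytosis, had a peak of 8.59 in WT and 5.53 in Tyrobp-/- mice, 1.55-fold lower, at chr10:115314810-115315100 in WT, and a 3' UTR peak of 1.66 in Tyrobp-/- mice only. Rab31, of transport between the Golgi and endosomes, was 5.49 in WT and 8.07 in Tyrobp-/- mice, a 1.47-fold ratio just inside the threshold, and Rab14 was the nearest on the other side with a ratio of 1.49-fold lower. Rab15, an endosomal Rab of neurons, was nearly equal at 1.99 and 1.98. Rab25, an epithelial relative of Rab11, had 1 peak of 6.84 in WT only, with an FDR above 0.05, and 814 WT peaks in all carried exactly that fold enrichment and FDR.

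The late endosome, lysosome and autophagy group had peaks in 9 of 12 genes, beside 62.0% of all RefSeq protein-coding genes. All 8 of its matched pairs were higher in Tyrobp-/- mice, where 53.5% of all pairs were. No other role list was one-sided. Early and recycling endosomes had 7 of 13 higher, and the endoplasmic reticulum and Golgi 6 of 11. Exocytosis, cilia and junctions had 3 of 7, synaptic vesicles and secretion 4 of 8, and ubiquitin ligases 1 of 2. The log2 ratios of the 8 pairs ran from 0.05 to 0.41. None passed 1.5-fold, beside 16.2% of all pairs higher and 13.4% lower. The 8 include 2 pairs of Rab7b, and the Rab20 pair lay mostly outside its gene. The median of this group was 0.20 on the log2 scale, beside 0.05 over all matched peaks. Rab7, the central Rab of late endosomes, had no peak. Rab7b, which acts in transport from endosomes to the Golgi, had 2 matched 3' UTR peaks, of 7.16 and 5.48 in WT and of 9.53 and 6.51 in Tyrobp-/- mice, and an exonic peak of 6.84 in WT only that was another of the 814 with equal values. Rab9, of late endosome to Golgi transport, was 5.90 in WT and 6.31 in Tyrobp-/- mice, and its paralogue Rab9b 8.01 and 8.58. Rab9 had 2 further WT rows, of 1.21 in the 3' UTR and of 2.06 near the start, the latter in WT only and with an FDR above 0.05.

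Rab24, of autophagy, was 5.10 in WT and 5.81 in Tyrobp-/- mice, Rab12, of receptor degradation, 3.81 and 4.40, and Rab29, which recruits the kinase LRRK2 to membranes, 5.02 and 5.21. Rab20, of phagosomes, had a matched row of 8.40 and 10.5 that lay mostly outside the gene, over E230013L22Rik. A longer WT row of 10.5 with most of its bases at the end of Rab20 met, in Tyrobp-/- mice, a row of 9.07 listed under E230013L22Rik. Rab32, of lysosome-related organelles, was the one gene with peaks in both lists but no overlap between them. It had a 3' UTR peak of 2.27 in WT, and in Tyrobp-/- mice a 3' UTR peak of 6.67 and a start peak of 4.29, the latter with an FDR above 0.05. Rab33b, which binds the autophagy factor ATG16L1, had 1 peak of 4.76, in Tyrobp-/- mice only by name. In WT the same bases were covered by rows listed under Gm37968 and Gm38160, of 11.3 and 5.12, and in Tyrobp-/- mice too by a Gm37968 row, of 9.91, so that its absence from the WT list by name does not show a lack of WT signal there.

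Of the Golgi and endoplasmic reticulum group, 12 of 16 listed genes had a peak, beside 62.0% of all RefSeq protein-coding genes. The list holds Rab41, which had no peak and is not among the 59 RefSeq genes. Rab1a, which carries cargo from the endoplasmic reticulum to the Golgi, had its only peak at the start, of 2.69 in WT and 2.40 in Tyrobp-/- mice, and its paralogue Rab1b had none. Rab30 and Rab19, both of the Golgi, were among the strongest of the family, with 3' UTR peaks of 14.1 and 12.6 for Rab30 and of 13.7 and 14.3 for Rab19. The log10 FDR of the Rab19 peak was -2.92 in WT and -2.75 in Tyrobp-/- mice, and that of Rab30 was -296 in Tyrobp-/- mice. Rab19 had a further WT row of 5.86 with an FDR above 0.05. Rab30 had further 3' UTR peaks of 1.69 and 2.36 in Tyrobp-/- mice only.

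Rab43, of Golgi traffic, had overlapping 3' UTR rows of 9.39 and 9.78 in WT and of 9.12 and 8.91 in Tyrobp-/- mice. Its start peak was 15.6 in WT and 8.58 in Tyrobp-/- mice, 1.82-fold lower, at chr6:87811587-87812047 in WT. In Tyrobp-/- mice that peak had an FDR above 0.05 and was 1 of 434 with the same fold enrichment and FDR, among them the second first exon peak of Rab14. The last Tyrobp-/- row, of 1.67, ran into Isy1. Rab39 and Rab39b are paralogues, the latter known from X-linked intellectual disability with parkinsonism. The 3' UTR peak of Rab39 was 3.58 in WT and 11 in Tyrobp-/- mice, 3.07-fold higher at chr9:53684318-53684437 in WT, the furthest increase in the family. Its log10 FDR was -1.99 in WT and -4.06 in Tyrobp-/- mice, and it covered 120 exonic bases in WT and 268 in Tyrobp-/- mice. Rab39 also had a WT row of 3.91 inside the pseudogene Rps6-ps3, with an FDR above 0.05. A better supported row inside Rab39 was listed under Rps6-ps3, of 11.1 in WT and 12 in Tyrobp-/- mice. Its log10 FDR was -24.8 in WT and -15.3 in Tyrobp-/- mice. Rab39b was 5.05 in WT and 5.73 in Tyrobp-/- mice, with a second, overlapping WT row of 1.53.

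Rab18, of the endoplasmic reticulum and lipid droplets, was 5.02 in WT and 5.91 in Tyrobp-/- mice in a 3' UTR peak past the RefSeq end. It had a start peak of 1.51 in WT only and a further 3' peak of 3.24 in Tyrobp-/- mice only. Rab33a, of Golgi-derived vesicles in neurons, was 3.86 and 4.29. Rab36 had 2 matched 3' UTR peaks, the first of 3.72 in WT and 4.03 in Tyrobp-/- mice and the second of 3.78 and 2.67. Rab34, of the Golgi and the primary cilium, had peaks of 2.97 in the 3' UTR and 2.96 at the 5' side, in Tyrobp-/- mice only. Rab6a and Rab6b, of retrograde Golgi transport, were split between the lists. Rab6a had a 3' UTR peak of 1.55 and a start row of 7.62, mostly over Mrpl48 and with an FDR above 0.05, in Tyrobp-/- mice only. Rab6b had a 3' UTR peak of 1.28 in WT only.

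All 6 Rab genes of exocytosis, cilia and junctions had peaks in both lists, as did 43 of the 59 Rab genes. Of all RefSeq protein-coding genes 56.8% had a peak in WT and 58.2% in Tyrobp-/- mice. Rab8a and Rab8b, of transport to the plasma membrane and cilium, differed from each other more than between genotypes. Rab8a was 2.24 in WT and 2.10 in Tyrobp-/- mice, and the stronger Rab8b peak 9.45 and 7.61, with a second peak of 2.05 and 2.21. Rab10, of exocytosis and GLUT4 delivery, was 11.1 and 9.85 at chr12:3250047-3250377, where the antisense RNA Rab10os overlaps it. The libraries were made to keep strand, but whether reads were counted by strand is not given in the sources used here, so the RNAs cannot be told apart. A weak Rab10 peak of 1.37 was in Tyrobp-/- mice only. Rab13, of tight junctions, was 9.40 and 10.8, with a second Tyrobp-/- row of 4.02 that the WT peak spanned in part. Rab23, which restrains Hedgehog signalling, was 11.5 and 11.3, with a second peak of 2.46 in Tyrobp-/- mice only. Rab28, of cilia and photoreceptors, went from 5.53 in WT to 9.16 in Tyrobp-/- mice, 1.66-fold higher, at chr5:41624976-41626270 in WT.

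Rab40b and Rab40c, which carry a SOCS box and serve ubiquitin ligases, had 3' UTR peaks of 7.00 and 7.65 and of 7.33 and 5.79. Rab40c had 2 further rows of 1.88 in Tyrobp-/- mice only, 1 in the 3' UTR and 1 in an exon over the pseudogene Cox7c-ps1. Rab42, in none of the role lists, had the second highest value of the family in both genotypes. Its WT 3' UTR peak of 17.3 matched a Tyrobp-/- row of 16.2 that ran on to the start of the gene, where WT had a separate peak of 5.21.

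**Figure D2:**
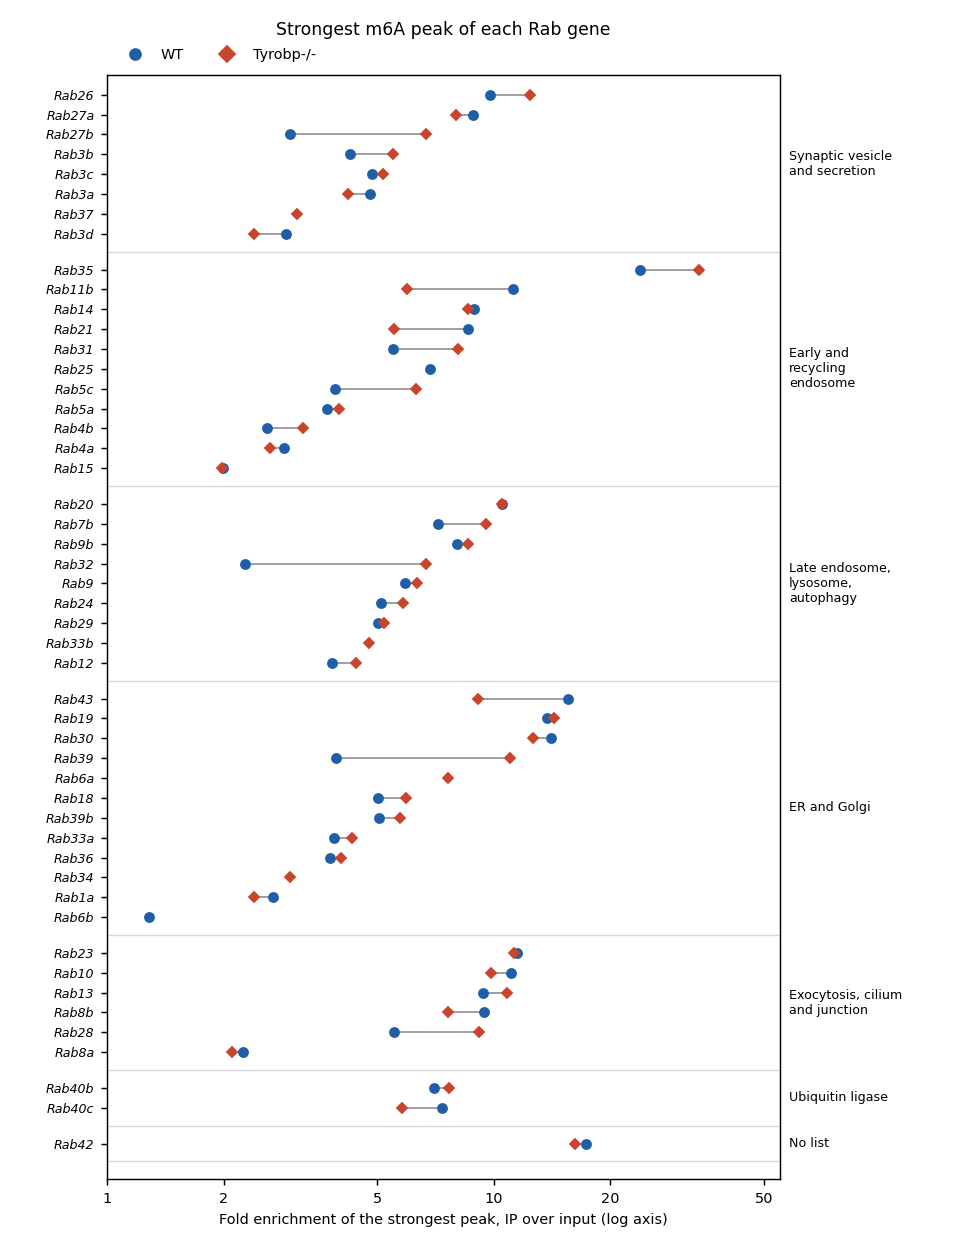
Fold enrichment (IP over input, log axis) of the strongest peak of each of the 49 Rab genes with a peak, grouped by role, with circles for WT, diamonds for Tyrobp-/- mice and a line where both lists have one. The strongest peak can be a different one in each list, as in Rab27b and Rab32, and Rab35 is highest in both genotypes (23.9 and 34.0).

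The question of how far the genotypes differed was put to the peaks of a gene that overlapped between the lists. There were 50 such Rab pairs in 42 genes and 23081 pairs in all. Rab pairs had a median log2 ratio of Tyrobp-/- to WT fold enrichment of 0.08 (interval -0.09 to 0.15), and all pairs one of 0.05. Of the Rab pairs 29 were higher and 21 lower in Tyrobp-/- mice, 58% higher (43.2% to 71.8%) beside 53.5% over all pairs. The lower and upper quartiles of the log2 ratio of Rab pairs were -0.16 and 0.21, and those of all pairs -0.29 and 0.39.

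At a ratio of at least 1.5-fold, 3 of 50 Rab pairs were higher in Tyrobp-/- mice (Rab39, Rab28 and Rab5c), or 6.00% (interval 1.3% to 16.5%), where 16.2% of all pairs were. A further 3 were lower (Rab11b, Rab43 and Rab21), or 6.00% (1.3% to 16.5%), where 13.4% of all pairs were. A log2 ratio within 0.32 of 0 was found for 35 Rab pairs, or 70.0% (55.4% to 82.1%), beside 47.7% of all pairs. Rab pairs were also called with more evidence, since 70.0% had a log10 FDR below -20 in both lists, beside 52.8% of all pairs. Among these well supported pairs, 2 of 35 Rab pairs were at least 1.5-fold higher (5.71%) and 1 lower (2.86%), against 9.50% and 6.56% of all such pairs. Over all genes the share past 1.5-fold was thus lower in well supported pairs, and the part of read depth in the difference between the Rab and all pairs was not tested. Of the 6 pairs past 1.5-fold, those of Rab28, Rab5c and Rab11b were in the well supported set, and the Rab11b row lay mostly outside its gene. Of the 12 Rab pairs with the same bounds in both lists, only that row passed 1.5-fold.

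**Figure D3:**
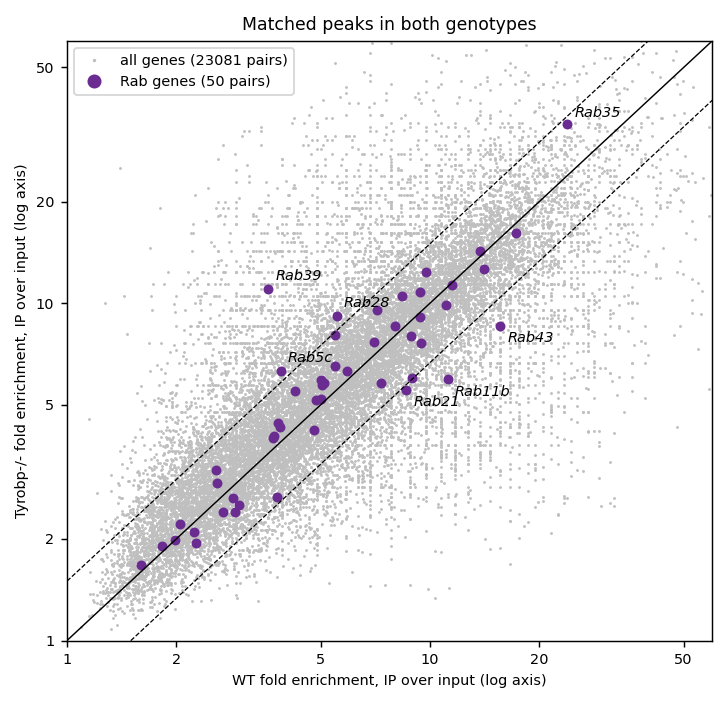
WT (x axis) and Tyrobp-/- (y axis) fold enrichment, both on log axes, of 23081 matched peaks of all genes (grey) and 50 of Rab genes (purple), with the line of equality and dashed lines at 1.5-fold. The 6 named Rab pairs outside the dashed lines are 3 on each side, and 102 pairs of other genes above 60 in either list are not drawn.

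Over the 50 Rab pairs, WT and Tyrobp-/- fold enrichments ranked much alike (Spearman's rho 0.88, as a description over peaks, of which several share a gene). Over all 23081 pairs rho was 0.78. Within the matched 3' UTR pairs the median log2 ratio was 0.09 for 37 Rab pairs and 0.09 for all 12104, and within the 5' UTR pairs 0.10 for 10 Rab pairs and 0.02 for all 3685.

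Peaks listed in 1 genotype only were weak. Of the 67 WT Rab peaks 8 had no overlapping peak of any gene in Tyrobp-/- mice, or 11.9% (5.30% to 22.2%), beside 20% of all WT peaks. Of the 77 Tyrobp-/- Rab peaks 21 had none in WT, or 27.3% (17.7% to 38.6%), beside 22.1% of all Tyrobp-/- peaks. The median fold enrichment was 2.17 for the 8 WT peaks and 5.10 for the other 59, and 2.46 for the 21 Tyrobp-/- peaks and 5.80 for the other 56. They were also short, with a median of 121 exonic bases in WT, where shared peaks had 331, and of 150 in Tyrobp-/- mice, where shared peaks had 417. Over all genes the peaks of 1 list had medians of 4.39 in WT and 4.29 in Tyrobp-/- mice, above those of the Rab peaks. An FDR above 0.05 was listed for 3 of the 8 and 5 of the 21, beside 2179 of 6720 and 2424 of 7712 over all genes. By gene, Rab25 and Rab6b had a peak under their own name in WT only, and Rab33b, Rab34, Rab37 and Rab6a in Tyrobp-/- mice only. Of the 17744 genes with a peak, 15781 had one in WT and 16146 in Tyrobp-/- mice, beside 45 and 47 of 49 Rab genes.

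**Figure D4:**
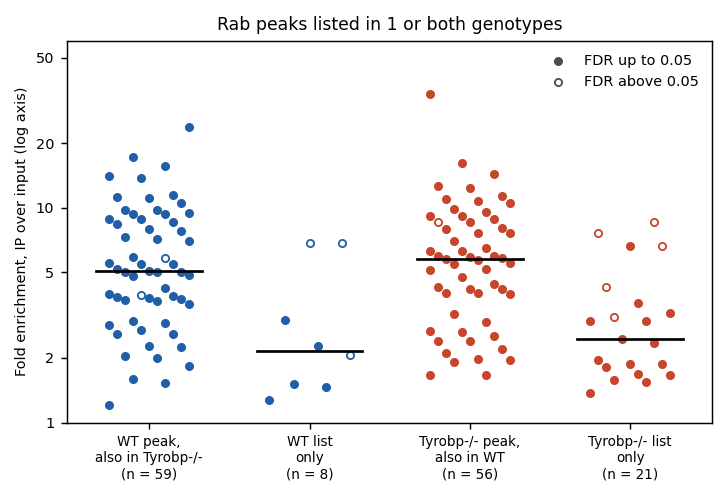
Fold enrichment (log axis) of Rab peaks that overlap a peak of the other genotype and of those that do not, with 1 point per peak, open points for a peak-calling FDR above 0.05 and a bar at the median. Peaks found in 1 list only have the lower medians (2.17 in WT and 2.46 in Tyrobp-/- mice), and 8 of the 29 are open.

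The authors also deposited a table of regions for the comparison of the genotypes. It held 12 Rab rows in 11 genes (Rab5c, Rab6a, Rab13, Rab14, Rab18, Rab19, Rab23, Rab28, Rab29, Rab34 and Rab35) of 5640 rows, and 11 of the 12 were in 3' UTRs, beside 53.3% of all rows. All 12 overlapped a Tyrobp-/- peak and 8 a WT peak. Over all rows, 87.0% overlapped a Tyrobp-/- peak and 75.5% a WT peak.

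The 10 Rab genes without a peak under their own name were Rab1b, Rab2a, Rab2b, Rab5b, Rab7, Rab11a, Rab17, Rab22a, Rab38 and Rab44. They include the textbook markers of late (Rab7) and recycling (Rab11a) endosomes. A missing peak does not show that a transcript lacks m6A, since a peak needs enough reads, and input levels were not analysed here. For 3 of the 10, rows of another name lay inside the gene. Inside Rab22a, an endosomal Rab, stood rows listed under the microRNA gene Mir6340, the stronger of 7.79 in WT and 7.14 in Tyrobp-/- mice over 569 and 509 exonic bases and the weaker of 3.82 and 6.64. Inside Rab2b stood a row listed under Tox4, of 1.74 and 2.80, and inside Rab38 a WT row under Gm15661, of 3.11. Rab35 likewise had a long row under Mir7030, of 5.75 in WT and 5.61 in Tyrobp-/- mice, and Rab31 one under AC166058, of 5.24 and 4.89. A second, shorter WT row under AC166058, of 16.6, lay within the span of the Tyrobp-/- row. The count of Rab genes with a peak therefore depends on which of the overlapping annotations a row was named for.

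A list of 11 substrates of the Parkinson's disease kinase LRRK2 was followed. It held the Rab3, Rab8 and Rab10 members, Rab12, Rab29, Rab35 and Rab43, but no Rab5 gene, and it may be incomplete. All 11 genes had peaks in both lists, as did 43 of the 59 Rab genes. Their 14 matched pairs had a median log2 ratio of 0.01, with 7 of the 14 higher in Tyrobp-/- mice, beside 53.5% of all pairs. The start peak of Rab43, which was lower, was the 1 pair of the 14 past 1.5-fold, beside 16.2% of all pairs higher and 13.4% lower.

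The other genes of the Rab cycle were followed as a list of 95, and 87 had a peak in at least 1 list, as did 62.0% of all RefSeq protein-coding genes. Among 158 matched pairs, 22 were at least 1.5-fold higher in Tyrobp-/- mice (13.9%) and 19 lower (12%), close to the 16.2% and 13.4% over all genes, with a median log2 ratio of 0.08. By role, 6 of 40 pairs of exchange factors, which load a Rab with GTP, were higher and 6 lower. For GTPase-activating proteins, which switch it off, 9 of 50 were higher and 6 lower. For effectors 3 of 58 were higher and 6 lower, and for GDIs, escort proteins and the prenyltransferase 3 of 7 were higher and 0 lower. Of the kinases Lrrk1 and Lrrk2, 1 of 3 pairs was higher and 1 lower.

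The pairs furthest down were Rin3, a Rab5 exchange factor, from 31.3 in WT to 2.56 in Tyrobp-/- mice, Tbc1d24, a synaptic TBC-domain protein, from 20.5 to 5.72, and Lrrk1 from 7.81 to 2.48. Furthest up were Mon1b, of the Rab7 exchange complex, from 2.47 to 9.92, Rabggta, a subunit of the Rab geranylgeranyl transferase, from 4.39 to 16.2, and Rab3il1, an exchange factor, from 2.37 to 8.58. Each of the 3 genes furthest down also had a pair at least 1.5-fold higher in Tyrobp-/- mice, of 6.23 in WT and 13.7 in Tyrobp-/- mice for Rin3, of 6.41 and 10.3 for Tbc1d24 and of 3.17 and 8.44 for Lrrk1. These were picked out after their values were seen. Several of these pairs were thinly supported, with a log10 FDR of -1.22 in WT for Rabggta, -1.87 for Rab3il1 and -1.02 in Tyrobp-/- mice for Lrrk1. That of Mon1b was -19.7 in WT and -44.5 in Tyrobp-/- mice.

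**Figure D5:**
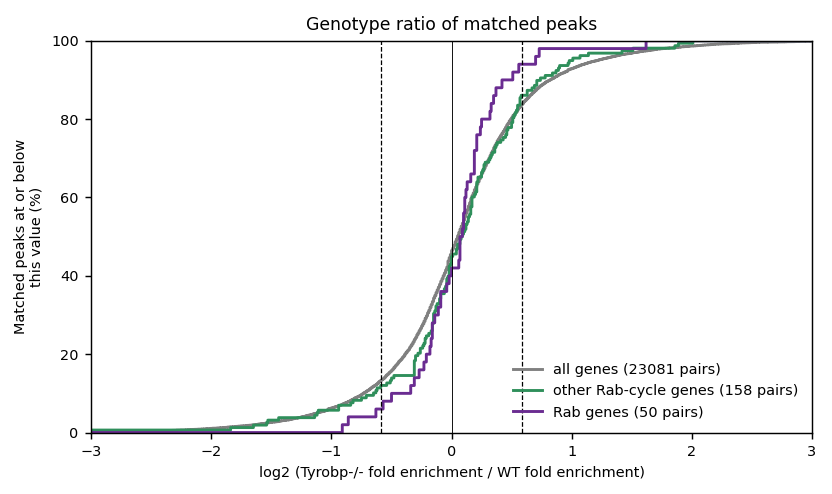
Cumulative share of matched peaks (y axis, percent) by the log2 ratio of Tyrobp-/- to WT fold enrichment (x axis) for 50 Rab pairs, 158 pairs of other Rab-cycle genes and 23081 pairs of all genes, with dashed lines at 1.5-fold in both directions. The Rab curve is the steepest, with 6.00% of pairs beyond each dashed line against 13.4% and 16.2% of all pairs.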

How the data were processed

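Hippocampal poly(A) RNA was studied by MeRIP-seq in 3 IP and 3 input libraries per genotype. Per the labels and the study's methods, the authors trimmed reads with fastp, mapped them with HISAT2 (mouse genome given as v96), called peaks with exomePeak on each genotype's pooled replicates and annotated them with ChIPseeker. HOMER is also named. The libraries kept strand through dUTP in the second cDNA strand. Versions, the strand setting used in counting and the treatment of multi-mapped reads are not given in the sources used here, so close paralogues and overlapping genes can share reads. The deposited peak lists give a fold enrichment (a ratio of IP to input), a log10 FDR (read as a score, since some values are minus infinity) and the span and width of each peak. The authors' table of library quality gives read counts and the percent of bases at Q30 and GC. The deposited comparison table also holds the authors' differential FDR, p-values and log2 fold changes, which were not used. Only its positions and gene names were read.

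Peaks of a gene were matched between the lists as mutual best partners with an overlap of at least 1 bp of their spans, and the log2 ratio of Tyrobp-/- to WT fold enrichment was taken. A pair was counted as higher or lower at 1.5-fold. The code was tested on simulated data. With 1 pooled value per genotype, no test was possible. RefSeq (GRCm38.p6) gave gene bounds and start sequences. Of 15873 genes matched by symbol and chromosome, 99.7% overlapped in position. Of the 59 Rab genes, 48 had a start window. Intervals are 95% Clopper-Pearson for shares and binomial order-statistic for medians. The members and gene lists were chosen with earlier results of these data known. Named genes were the 10 strongest members of each list, members past 1.5-fold, with peaks in 1 genotype only or with none, the 3 with most peaks, 10 chosen by role and the 3 furthest pairs each way of other Rab-cycle genes. All other members were named too. Python 3, pandas, numpy and scipy were used.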

Additional observations from a re-analysis of the deposited data

How the results depend on the processing

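Of 59 recomputed values, 43 stayed close to the value reported (counts within 1.5-fold, shares and medians within their interval). With a fold enrichment of at least 4, Rab peaks numbered 38 in WT and 46 in Tyrobp-/- mice. Under a reciprocal overlap of 50%, 24 WT and 34 Tyrobp-/- Rab peaks were in 1 list only. With a peak-calling FDR below 1e-5 it was 4 and 10, and with an FDR below 0.05 (chosen after seeing the data) 5 in WT. With 1 peak per gene the Tyrobp-/- median fold enrichment was 6.30. At 2-fold, 1 Rab pair was higher and 0 lower in Tyrobp-/- mice, beside 7.14% and 6.28% of all pairs, and past a log2 ratio of 0.32 either way 9 and 6, 18% and 12%, beside 29.3% and 23.1%. Pairs with the same bounds in both lists, an alternative added after seeing the data, gave 0 higher and 1 lower of 12, a share higher of 41.7% and a median log2 ratio of -0.16, which is the opposite sign to the 0.08 of all 50. The counts were taken under stricter or looser rules, and 1 peak per gene kept the strongest one. The causes of the moves, the change of sign included, were not tested.

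No value without 1 replicate was computed, as each peak had 1 value per genotype. No paired analysis was possible because the replicates were pooled before peaks were called. Fold enrichments of peaks with few reads are coarse, and their depth is unknown.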

Other observations

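Weakly supported peaks took a small set of repeated values. In the WT list 814 peaks had a fold enrichment of 6.84 with a log10 FDR of -0.56, Rab25 and an exonic peak of Rab7b among them. In the Tyrobp-/- list 887 peaks stood at 6.67 (Rab27b), 583 at 7.62 (Rab6a) and 434 at 8.58 (Rab14 and Rab43), each with 1 shared FDR. Of the Rab peaks, 5 of 67 in WT and 6 of 77 in Tyrobp-/- mice had an FDR above 0.05, or 7.46% and 7.79%, beside 10.3% and 11% over all genes.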
